A study of Mus musculus with 12 samples.

Results

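Cacna1a, Rbpms, Ocel1, Gab1, Il15, Tbc1d9, Gadd45gip1 and Ces1b are 8 protein-coding genes of mouse chromosome 8, taken from the 1526 genes counted on that chromosome and the 31131 counted in all. They were picked because their transcript levels in the livers of homozygous embryos lay apart from those of the other embryos in at least 1 cell type, and then followed to postnatal day 3 (P3). The levels that separate these groups are therefore how the genes were chosen. They are given below as a description, without a test.

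Whole livers of mice carrying the Nodder (Ndr) allele of Jag1 were dissociated and sequenced cell by cell in droplets, from embryos (E16.5) and from pups (P3). At each stage there were 2 samples of wild-type (Jag1+/+), heterozygous (Jag1Ndr/+) and homozygous (Jag1Ndr/Ndr) animals, 6 groups in all, the last written Jag1Ndr/Nd for the homozygotes in some labels. Animals came from matings between heterozygotes, homozygous pups were picked by their jaundice, and only the embryonic livers were digested with TrypLE. The labels' strain field held the genotype alone, and no sex was given for single samples.

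The 12 samples held 9 distinct libraries. Replicate 2 of the Jag1+/+ embryos and replicate 2 of the Jag1Ndr/+ embryos had the same matrix, barcode for barcode, which was used once, as the shared library. The E16.5 comparison therefore set 2 Jag1Ndr/Ndr libraries against 3 others, namely Jag1+/+ replicate 1, the shared library and Jag1Ndr/+ replicate 1. Among pups, 6 of the 15 matrix pairs had in common at least 53.4% of barcodes, against at most 1.72% in the other pairs, and 4 libraries remained. Libraries A and B were deposited under several genotypes, so their genotype is unclear. They enter no comparison between genotypes, serve as the range beside which C and D are described, and count as P3 libraries in the tests between stages. Only the label Jag1Ndr/Ndr applied to library C, and only Jag1Ndr/+ to library D. The barcodes of the matrix that holds library C had at least 2399 UMIs as deposited, whereas library D reached down to the minimum of 1000 UMIs used here, so C and D are compared under unequal depth limits. With a minimum of 2000 UMIs, still under that of library C, 8 ratios of C over D were recomputed. They were 1 for each gene, in its highest class among those named at both stages, and kept their sign. For Rbpms, Gab1 and Il15 the embryo groups overlapped in that class. Ratios in other classes were not recomputed with that minimum. Totals ranged from 30087760 to 288658950 UMIs (counted transcript molecules) per deposited matrix, and 13788 to 25113 cells were kept per library. Levels are UMIs scaled to a common total within each cell class and library (CPM, the usual scaling of counts). Cell classes were named from marker genes and are called "-like". In each class at least 5 of its markers were highest in that class. In embryos, Jag1 itself, a transcript that a missense allele need not alter, measured 0.676 to 1.83 CPM over all kept cells, with the homozygous libraries at 0.987 and 1.04 CPM, inside that range.

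Jag1 is a ligand on the cell surface that activates Notch receptors of neighbouring cells, a signal known for its part in forming bile ducts. The fetal liver is also the main site of blood formation, so erythroid, myeloid and B-lineage cells surround the hepatocytes, endothelium and mesenchyme. The 8 genes do not belong to 1 pathway. Cacna1a encodes the pore of the P/Q-type voltage-gated calcium channel, best known from neurons, and Il15 encodes a cytokine that sustains natural killer and memory T cells. Gab1 is a docking protein that relays receptor tyrosine kinase signals. Rbpms encodes an RNA-binding protein known for splicing control in smooth muscle. Tbc1d9 belongs to the TBC family, whose members act on Rab GTPases in vesicle traffic. Ocel1 is named for a domain shared with occludin and ELL. Gadd45gip1 encodes a protein of the large subunit of the mitochondrial ribosome, and Ces1b a carboxylesterase of the ester- and drug-cleaving family of the liver.

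On GRCm38 (annotation GENCODE M21), Rbpms (ENSMUSG00000031586) occupies chr8:33782643-33929863 and Ocel1 (ENSMUSG00000002396) chr8:71371298-71379361. Gab1 (ENSMUSG00000031714, chr8:80764438-80880519), Il15 (ENSMUSG00000031712, chr8:82331632-82403222) and Tbc1d9 (ENSMUSG00000031709, chr8:83165352-83272934) follow. Cacna1a (ENSMUSG00000034656) lies at chr8:84388440-84640246, Gadd45gip1 (ENSMUSG00000033751) at chr8:84831522-84835482 and Ces1b (ENSMUSG00000078964) at chr8:93056728-93080017. Rbpms, Gab1, Il15 and Ces1b are on the minus strand and the others on the plus strand. Ocel1 overlaps Nr2f6 on the opposite strand, and Rbpms overlaps Gm26632. The stretch from Gab1 to Gadd45gip1 holds 5 of the 8 genes.

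RefSeq promoter windows (build GRCm38.p6) were at hand for 4 of the 8 genes, among them the gene apart in the most classes, Ocel1, and the gene found in hepatocyte-like cells, Ces1b. The 250 bases before the start are printed 5′ to 3′, with capitals marking a CCAAT box (CCAAT or ATTGG) or a GC box (CCGCCC or GGGCGG), whichever strand it is on.
Ocel1, chr8:71371048-71371297, plus strand: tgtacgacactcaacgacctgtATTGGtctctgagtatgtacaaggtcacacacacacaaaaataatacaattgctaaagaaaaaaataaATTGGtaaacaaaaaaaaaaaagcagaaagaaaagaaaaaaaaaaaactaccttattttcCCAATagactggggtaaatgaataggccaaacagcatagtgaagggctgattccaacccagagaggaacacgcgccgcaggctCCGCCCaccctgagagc
Gab1, chr8:80880520-80880769, minus strand: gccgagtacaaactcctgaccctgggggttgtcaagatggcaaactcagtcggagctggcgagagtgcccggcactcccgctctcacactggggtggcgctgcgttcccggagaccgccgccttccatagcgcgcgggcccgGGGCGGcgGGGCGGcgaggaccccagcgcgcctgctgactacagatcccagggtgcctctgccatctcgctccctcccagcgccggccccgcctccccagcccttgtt
Tbc1d9, chr8:83165102-83165351, plus strand: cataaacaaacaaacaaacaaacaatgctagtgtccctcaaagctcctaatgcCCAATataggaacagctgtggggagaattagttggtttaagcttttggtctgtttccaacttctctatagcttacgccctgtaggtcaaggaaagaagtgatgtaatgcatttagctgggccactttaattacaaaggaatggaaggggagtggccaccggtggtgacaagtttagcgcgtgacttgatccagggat
Ces1b, chr8:93080018-93080267, minus strand: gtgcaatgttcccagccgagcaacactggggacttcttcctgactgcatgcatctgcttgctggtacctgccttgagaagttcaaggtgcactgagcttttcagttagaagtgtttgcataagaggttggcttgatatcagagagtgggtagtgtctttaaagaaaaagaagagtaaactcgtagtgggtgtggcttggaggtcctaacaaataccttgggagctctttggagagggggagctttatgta
The Ocel1 window held 3 CCAAT matches and 1 GC box, that of Gab1 2 GC boxes, that of Tbc1d9 1 CCAAT match, and that of Ces1b neither. Among 32851 windows of this length, 33.8% held CCAAT and 32.7% the GC box on either strand. A TATA box (TATAAA or TTTATA) was in none of the 4, and in 12.4% of all windows. CG dinucleotides numbered 6 in Ocel1, 24 in Gab1, 4 in Tbc1d9 and 2 in Ces1b, against a median of 6. These matches describe letters in the windows only.

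In embryos, 10 classes had at least 20 cells in every library, and 60 of the 80 pairs of class and member passed the filter on low counts. The other 20 pairs had group means of at most 6.50 CPM, and in 6 of them the groups were also apart, on few UMIs. In 32 of the 60 pairs both homozygous libraries lay beyond all 3 others, a state found in 9.68% of all 108174 pairs of class and gene. In 18 pairs the homozygous libraries were higher (3.53% of all pairs) and in 14 lower (6.14%). By class, the share of all genes apart was 6.91% in B-like, 11.9% in basophil and mast-like, 9.91% in endothelial-like, 3.28% in erythroid-like and 11.8% in hepatocyte-like cells. It was 6.83% in macrophage-like, 17.0% in megakaryocyte-like, 15.6% in mesenchymal-like, 10.8% in monocyte-like and 7.5% in neutrophil-like cells. Since the genes were chosen on this contrast, nothing is read from these counts. Across the whole table edgeR's quasi-likelihood test called 1 pair (0.000924%) at an adjusted p of 0.05, which was Adgrg5 in monocyte-like cells. That chromosome 8 gene measured 13.9, 13.4 and 14.3 CPM in the libraries without the homozygous label against 0.721 and 1.59 CPM in the homozygous ones, with an adjusted p of 0.00353 in edgeR. At P3 the same class held 17.1, 15.5, 26.1 and 40.5 CPM of Adgrg5 in libraries A to D. Library C was thus below D but above A and B, and not near the level of the homozygous embryos. An unadjusted p under 0.05 in edgeR was found for 1812 of the 108174 pairs. That is a smaller share than 0.05 itself, so these pairs are not read as further differences. DESeq2 called 14 pairs. No p is given for the 8 genes.

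**Figure D1:**
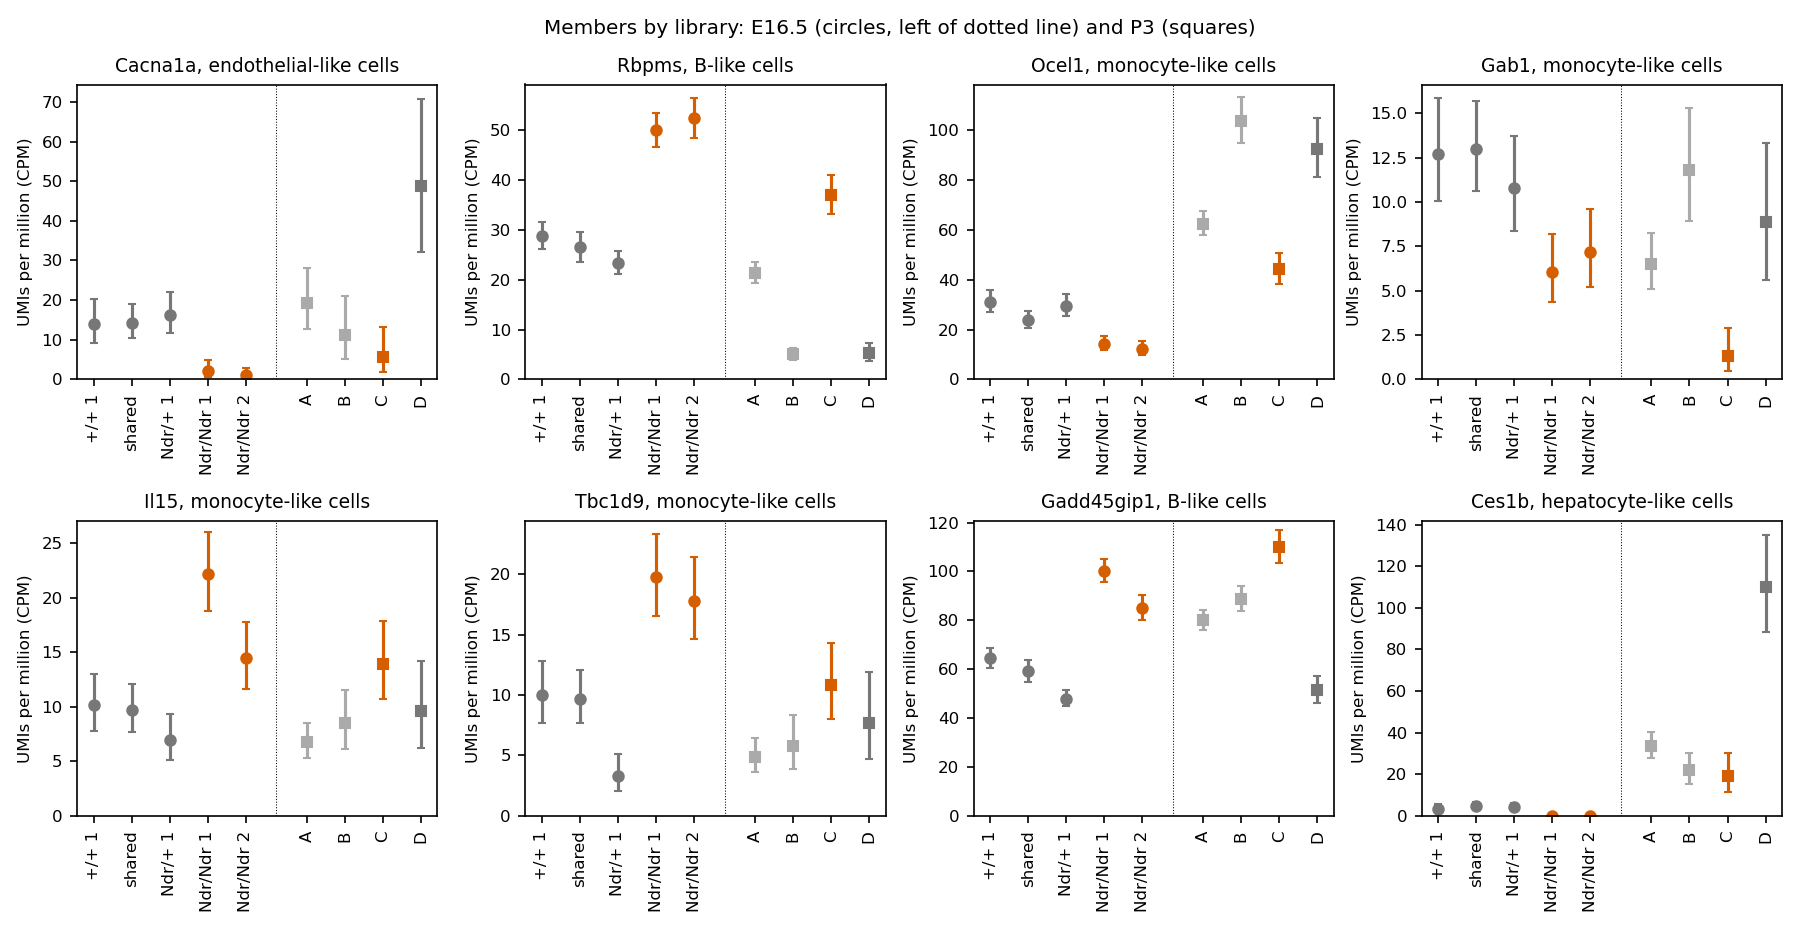
CPM (vertical axis) of each gene in 1 cell class, by library (horizontal axis), with E16.5 as circles and P3 as squares; orange marks libraries with only the homozygous label, dark grey the other libraries, light grey P3 libraries A and B, and bars are exact 95% Poisson intervals for counting error. Each panel shows a class in which the 2 homozygous embryos lie on 1 side of the other 3, so this separation describes the choice of panel. For Cacna1a they lie at 2.14 and 1.01 CPM against 13.9 to 16.4 CPM. For Rbpms, Gab1 and Il15 the groups overlapped in the class with the highest mean, which is not shown.

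**Figure D2:**
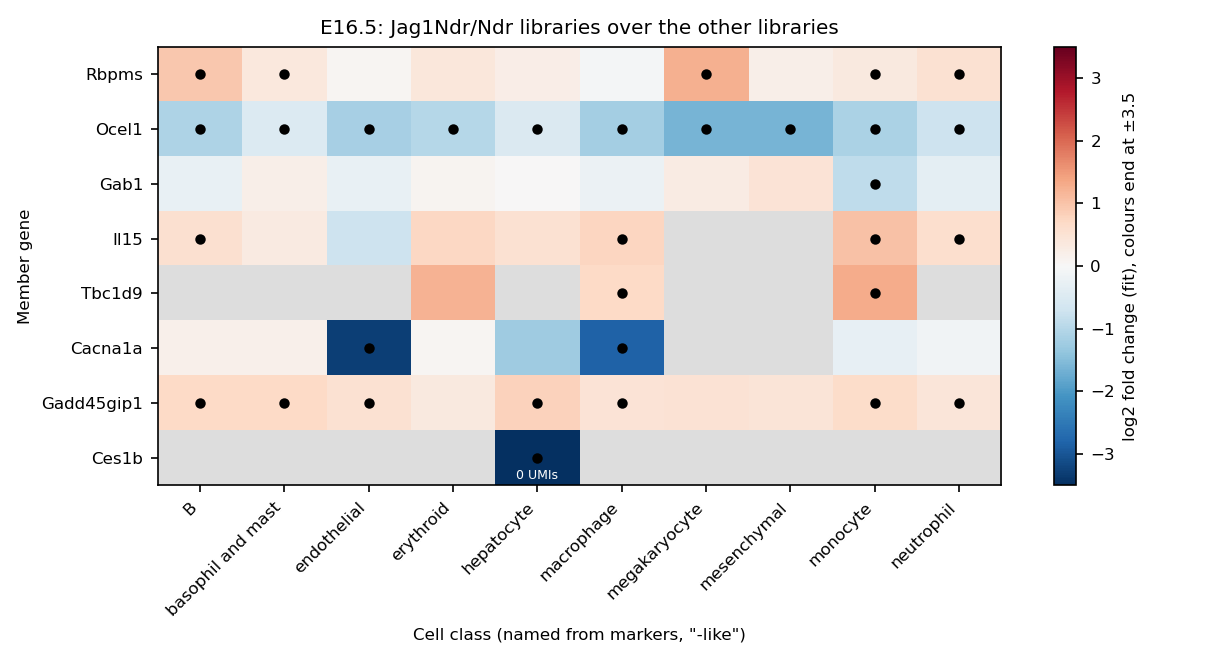
Fitted log2 fold change of Jag1Ndr/Ndr over the other E16.5 libraries, for each gene (rows) and cell class (columns); grey fields did not pass the filter on low counts and black dots mark pairs in which both homozygous libraries lay beyond all others. Ocel1 has a dot in 10 of 10 classes, whereas Cacna1a has 2 of 8; Ces1b had 0 UMIs in the homozygous libraries, so its colour is no measured size.

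Cacna1a was lower in the homozygous embryos in endothelial-like and macrophage-like cells. In endothelial-like cells it measured 13.9 CPM in Jag1+/+ replicate 1, 14.3 CPM in the shared library and 16.4 CPM in Jag1Ndr/+ replicate 1, but 2.14 and 1.01 CPM in Jag1Ndr/Ndr replicates 1 and 2. The groups did not overlap, and the means were 1.57 ± 0.802 CPM (SD, n = 2) and 14.9 ± 1.31 CPM (SD, n = 3), 9.45-fold apart. The homozygous value rested on 8 UMIs. In macrophage-like cells the levels were 5.63, 5.47 and 6.50 CPM in the other libraries and 0.732 and 0.946 CPM in the homozygous ones, 6.99-fold apart. The remaining 6 classes in which it passed the filter overlapped. In B-like cells, for instance, it measured 3.59 and 5.23 CPM in the homozygous libraries and 3.62 to 4.13 CPM in the others. In neutrophil-like cells the means were 2.74 ± 0.696 (SD, n = 2) and 3.09 ± 0.344 CPM (SD, n = 3).

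Within macrophage-like cells, Cacna1a was concentrated in 1 of 2 clusters at E16.5. In cluster 22, which made up 14.4% to 18.8% of the class in every library, it ranged from 11.02 to 18.6 CPM in the other libraries and stood at 0.443 and 1.65 CPM in the homozygous ones. In cluster 7 it ranged from 1.45 to 1.77 CPM and stood at 0.875 and 0.510 CPM, on 3 to 10 UMIs per library. Both endothelial-like clusters showed the same order, with 15.1 to 23.6 CPM against 0.530 and 2.82 CPM in cluster 26. In cluster 24 the margin rested on 1 UMI, since Jag1+/+ replicate 1 stood at 2.01 CPM on 1 UMI and the homozygous libraries at 1.09 and 1.83 CPM.

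At P3, Cacna1a in macrophage-like cells measured 8.82 CPM in library A, 23.1 in B, 0.748 in C and 28.5 in D. Library C was the lowest of the 4 and held 2 UMIs against 68 in D. Its log2 ratio over D, with 1 CPM added to each, was -4.07. The interval for counting error only, -8.32 to -3.34, is that of the plain ratio, without the added CPM. Later intervals beside ratios of C over D are of this kind, and are called plain-ratio intervals. In endothelial-like cells the levels were 19.2, 11.1, 5.62 and 48.7 CPM in libraries A to D. Library D was high there, on 27 UMIs, and library C lowest, on 5 UMIs. Summed neutrophil markers in P3 endothelial-like cells were 16789 to 49529 CPM, against 2875 to 6015 CPM in embryos. Mesenchymal markers there were 334, 463, 626 and 173 CPM in libraries A to D, and basophil and mast markers 204, 181, 263 and 25.3 CPM. The part of these markers in the Cacna1a values was not tested. With 1 library on each side there is no replicate check at P3 for Cacna1a or any other gene here.

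**Figure D3:**
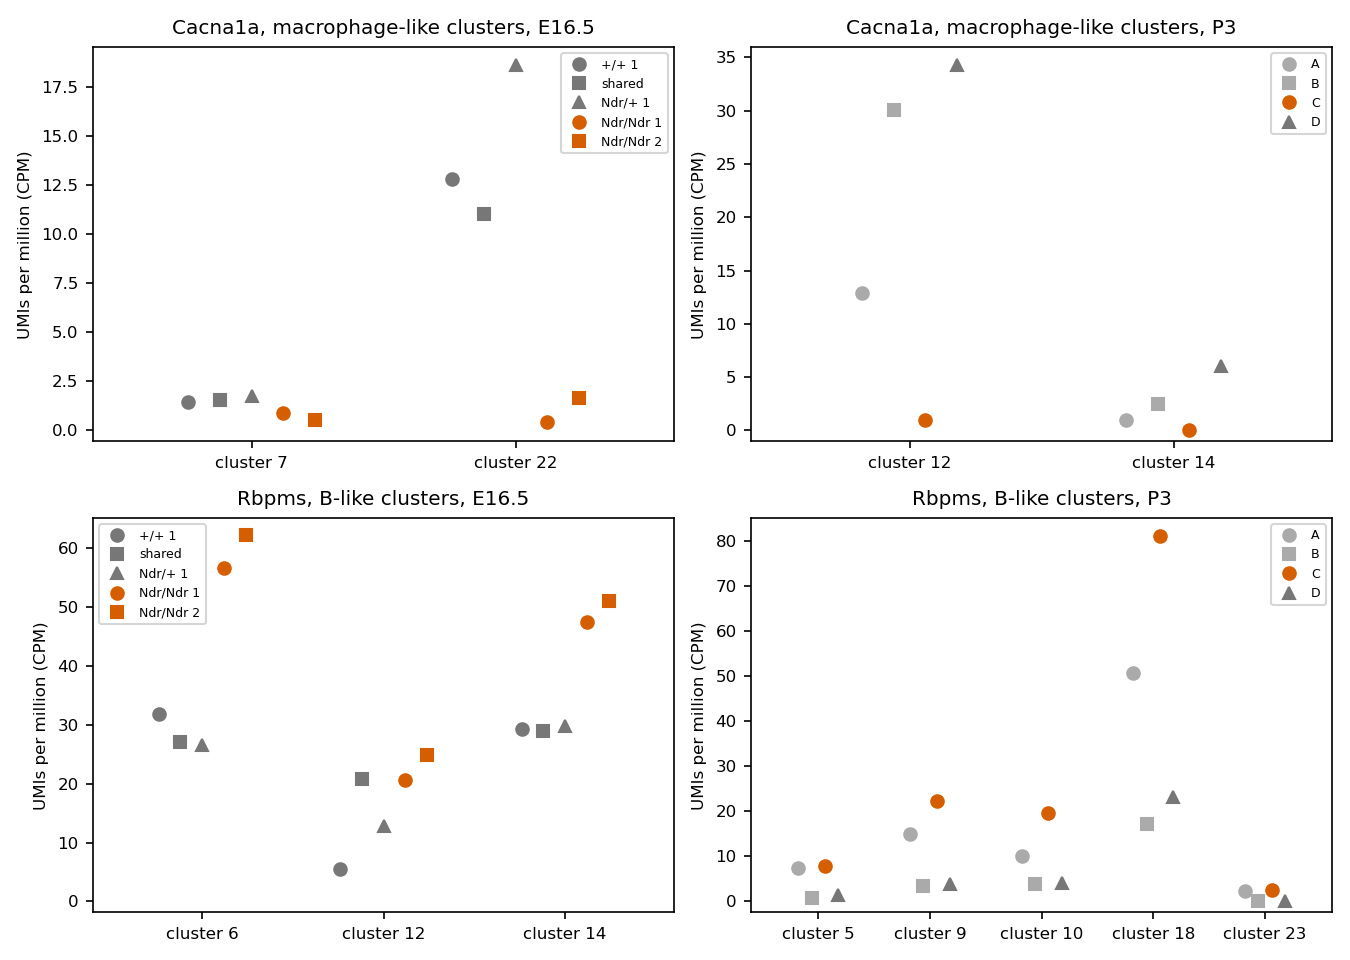
CPM (vertical axis) in the clusters (horizontal axis) that make up the macrophage-like class for Cacna1a and the B-like class for Rbpms, at E16.5 and P3; each point is 1 library, orange for only the homozygous label. Cacna1a was lowest in orange libraries in each cluster. This rested on few UMIs in cluster 7 at E16.5 (3 to 10 per library) and cluster 14 at P3 (0 to 4 per library). Rbpms in P3 library C was above libraries A, B and D in all 5 B-like clusters, but only narrowly above A in clusters 5 and 23.

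Of 20 other voltage-gated calcium channel subunits, 0 passed the filter in endothelial-like cells, so no further member of the channel could be compared there. Across the 10 classes, the mean of Cacna1a over all 9 libraries ran from endothelial-like cells (14.7 ± 14.2 CPM, SD, n = 9) through macrophage-like (8.93 ± 10.1), basophil and mast-like (8.01 ± 4.97) and mesenchymal-like cells (3.94 ± 2.06) to erythroid-like cells (0.430 ± 0.167). The first 3 did not differ beyond their spread. Its nearest filtered neighbours in endothelial-like cells, Ccdc130 and Ier2, had log2 fold changes of 0.42 and 0.01.

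Il15 was higher in the homozygous embryos in 4 of the 8 classes that passed the filter, all of them blood cells. In the 2 classes that did not pass, its means were lower in the homozygous libraries, at 1.63 against 4.28 CPM in megakaryocyte-like and 1.63 against 6.50 CPM in mesenchymal-like cells. In monocyte-like cells it measured 10.1, 9.69 and 6.99 CPM in Jag1+/+ replicate 1, the shared library and Jag1Ndr/+ replicate 1, and 22.2 and 14.5 CPM in Jag1Ndr/Ndr replicates 1 and 2. The means were 18.3 ± 5.46 (SD, n = 2) and 8.94 ± 1.70 CPM (SD, n = 3), 2.05-fold apart and without overlap. In macrophage-like cells it measured 8.98, 11.1 and 8.66 CPM against 19.6 and 12.8 CPM. In neutrophil-like cells the homozygous libraries were at 14.7 and 12.0 CPM and the others at 6.65 to 10.9 CPM.

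Jag1Ndr/Ndr replicate 1 was the higher homozygous library for Il15 in each of these 3 classes. Without it the fitted log2 fold change in macrophage-like cells went from 0.74 to 0.33, and in monocyte-like cells from 1.03 to 0.67. In monocyte-like cells the summed level of the macrophage markers was 413 CPM in that library, 153 CPM in Jag1Ndr/Ndr replicate 2 and 140 to 224 CPM in the others. The part of these markers in the Il15 values was not tested. In basophil and mast-like cells, the class with the highest mean over all libraries (28.7 ± 6.56 CPM, SD, n = 9), the groups overlapped, at 33.1 and 35.4 CPM against 21.8 to 38.4 CPM.

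At P3, Il15 in macrophage-like cells measured 20.4 CPM in A, 29.3 in B, 36.3 in C and 20.1 in D. The log2 ratio of C over D was 0.82 (plain-ratio interval 0.34 to 1.38). In neutrophil-like cells the 4 libraries stood at 7.94, 9.05, 12.1 and 8.16 CPM, and in monocyte-like cells at 6.80, 8.49, 13.9 and 9.64 CPM. Library C was highest in these 3 classes. Of the 2 macrophage-like clusters, cluster 12 held 71.5% of the class in C and 52.1% to 62.1% in the others, with Il15 at 44.2 CPM in C against 22.7 to 33.7 CPM. In cluster 14, library C (5.48 CPM) lay within the range of the others (5.16 to 16.3 CPM). In basophil and mast-like cells it was lowest instead, at 19.1 CPM against 28.4 to 31.2 CPM in the others. The order of classes after basophil and mast-like cells was macrophage-like (18.6 ± 9.45), monocyte-like (11.4 ± 4.87) and neutrophil-like cells (10.3 ± 2.53), and these 3 did not differ beyond their spread.

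Of 12 other IL-15 pathway genes, 9 passed the filter in basophil and mast-like cells at E16.5, and in 0 of them did the groups separate. Their median log2 fold change was -0.01, against -0.00 over all 8817 genes tested in the class. Jak1, a kinase that the IL-15 receptor uses, measured 123 CPM in the homozygous libraries and 126 CPM in the others. Il15 itself overlapped in this class, and the list was not compared in the classes where Il15 was higher.

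Gab1 was lower in the homozygous embryos in 1 of 10 classes. In monocyte-like cells it measured 12.7, 13 and 10.8 CPM in Jag1+/+ replicate 1, the shared library and Jag1Ndr/+ replicate 1, and 6.06 and 7.16 CPM in the homozygous replicates. The groups did not overlap, and the means of 6.61 ± 0.782 (SD, n = 2) and 12.2 ± 1.19 CPM (SD, n = 3) were 1.84-fold apart. At P3 the same class held 6.52, 11.8, 1.33 and 8.87 CPM in libraries A to D. Library C was the lowest, with 6 UMIs against 23 in D and a log2 ratio of -2.08 (plain-ratio interval -4.33 to -1.40).

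Gab1 was highest in mesenchymal-like (23.4 ± 8.16 CPM, SD, n = 9) and endothelial-like cells (22.6 ± 7.75), which did not differ beyond their spread. In mesenchymal-like cells of embryos the groups overlapped, at 22.3 and 32.7 CPM against 16.04 to 25.9 CPM. One of its clusters did separate them. In cluster 30, led by Dcn, Col14a1 and Col3a1, the homozygous libraries lay at 55.7 and 73.3 CPM and the others at 33.8 to 41.7 CPM. Summed endothelial markers in mesenchymal-like cells were 641 and 660 CPM in the homozygous libraries and 879 to 916 CPM in the others, and their part was not tested. Gab1 was thus lower in 1 class and higher in 1 cluster of another in the same 2 libraries. Of 14 other genes of receptor tyrosine kinase signalling, 12 passed the filter in mesenchymal-like cells. In 1 of them, the exchange factor Sos2, the groups were apart, at 14.7 CPM against 9.70 CPM. This list was not compared in monocyte-like cells, where Gab1 was lower.

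Rbpms was higher in the homozygous embryos in 5 of 10 classes, with the largest ratios of means in B-like and megakaryocyte-like cells. In B-like cells it measured 28.9, 26.5 and 23.4 CPM in the other libraries and 50.01 and 52.4 CPM in the homozygous ones. The means of 51.2 ± 1.71 (SD, n = 2) and 26.3 ± 2.75 CPM (SD, n = 3) were 1.95-fold apart. In megakaryocyte-like cells the values were 5.93, 12.3 and 7.19 CPM against 13.7 and 19.1 CPM, a narrow margin on 54 and 69 UMIs. The share of B-like cells with at least 1 Rbpms UMI was 14.7% to 18.7% in the other libraries and 28.9% and 30.7% in the homozygous ones. After thinning every cell to 1000 UMIs it was 1.61% to 2.50% against 3.23% and 4.37%, and 0.149% to 0.279% in erythroid-like cells. Median depths in B-like cells were 5897 to 8054 UMIs, and in erythroid-like cells 4932 to 9393 UMIs.

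The cells in which Rbpms was most abundant did not show the difference. In endothelial-like cells (123 ± 24.7 CPM over all libraries, SD, n = 9) the homozygous embryos stood at 106 and 116 CPM and the others at 76.0 to 123 CPM. In mesenchymal-like cells, the next in order (67.0 ± 12.6), the values were 76.3 and 77.1 CPM against 64.9 to 89.8 CPM. Hepatocyte-like cells (44.9 ± 9.57) also overlapped, at 44.8 and 52.1 CPM against 37.5 to 53.7 CPM.

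Among the 3 B-like clusters at E16.5, the homozygous libraries were above the others in cluster 6 (56.7 and 62.3 CPM against 26.6 to 31.9 CPM) and cluster 14 (47.5 and 51.1 CPM against 29.0 to 29.8 CPM). Cluster 12 overlapped narrowly, at 20.7 and 24.9 CPM against 5.58 to 20.8 CPM. At P3, Rbpms in B-like cells measured 21.3 CPM in A, 5.01 in B, 37.0 in C and 5.29 in D. The log2 ratio of C over D was 2.59 (plain-ratio interval 2.31 to 3.34). Library C was highest and library A lay between it and the other 2. In megakaryocyte-like cells the 4 values were 8.92, 1.08, 21.6 and 0.984 CPM, in the same order, and in T and NK-like cells 22.9, 2.27, 36.2 and 6.38 CPM.

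The B-like class was made up differently in the P3 libraries. Cluster 18, led by the pre-B cell genes Igll1 and Vpreb1, held 20.8% of the class in library C, 6.68% in D, 11.5% in A and 6.55% in B, and Rbpms was most abundant there. Within that cluster it measured 50.8, 17.1, 81.1 and 23.2 CPM in libraries A to D. Library C was above the other 3 in each of the 5 B-like clusters. In cluster 23 the margin over A rested on 2 UMIs in C and 3 in A (2.51 and 2.22 CPM). In cluster 5 C stood at 7.96 CPM and A at 7.45 CPM. In monocyte-like cells, where the homozygous embryos had been higher, library C (14.6 CPM) was below D (18.5 CPM), and in hepatocyte-like cells it was the lowest, at 26.4 CPM against 44.97 to 56.1 CPM. Of 9 other RNA-binding splicing factors, all passed the filter in endothelial-like cells. In 1 of them, the paralog Rbpms2, the groups were apart, at 1.65 CPM against 3.73 CPM. Rbpms itself overlapped there in embryos, and the list was not compared in the classes where Rbpms was higher.

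Tbc1d9 passed the filter in 3 of 10 classes, monocyte-like, macrophage-like and erythroid-like cells. In monocyte-like cells it measured 9.99, 9.69 and 3.34 CPM in Jag1+/+ replicate 1, the shared library and Jag1Ndr/+ replicate 1, and 19.8 and 17.8 CPM in the homozygous replicates. The groups did not overlap, with means of 18.8 ± 1.37 (SD, n = 2) and 7.67 ± 3.76 CPM (SD, n = 3). This class was cluster 13, whose leading genes included the dendritic marker Cd74, and no embryonic cluster was named dendritic-like. The part of dendritic cells in these values was not tested. In macrophage-like cells the other libraries stood at 9.28, 11.1 and 3.57 CPM and the homozygous ones at 13.3 and 11.5 CPM. There the groups overlapped in cluster 7, which held 81.2% to 85.6% of the class, at 3.23 and 6.34 CPM against 2.13 to 3.89 CPM. They separated in cluster 22, at 24.8 and 27.5 CPM against 7.26 to 21.3 CPM. Jag1Ndr/+ replicate 1 was the low library in both classes. Without it the log2 fold change in macrophage-like cells was 0.46 in place of 0.69.

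Summed erythroid markers in macrophage-like cells were highest in that same library, at 435195 CPM against 234139 to 349719 CPM in the other 4, and their part in its low values was not tested. The share of monocyte-like cells with a Tbc1d9 UMI was 3.62% to 14.3% in the other libraries and 20.9% and 25.4% in the homozygous ones. Thinned to 1000 UMIs, it was 0.213% to 1.35% against 2.04% and 2.80%, with 0.00617% to 0.0620% in erythroid-like cells. Median depths were 11320 to 16123 UMIs in monocyte-like and 4932 to 9393 UMIs in erythroid-like cells.

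At P3, Tbc1d9 was highest in dendritic-like cells, a class named at that stage only, with 78.2 CPM in A, 99.8 in B, 117 in C and 66.8 in D. The log2 ratio of C over D was 0.80 (plain-ratio interval 0.38 to 1.24). In macrophage-like cells the 4 libraries lay close together, at 35.3, 38.7, 40.8 and 32.2 CPM, and in monocyte-like cells at 4.91, 5.80, 10.8 and 7.71 CPM. The plain-ratio interval of C over D crossed 0 in both, at -0.09 to 0.78 and -0.29 to 1.32. Of 27 other TBC domain and RabGAP genes, 26 passed the filter in macrophage-like cells at E16.5 and 1, Tbc1d25, was apart, at 1.57 CPM against 2.01 CPM.

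Ocel1 was lower in the homozygous embryos in all 10 classes. In monocyte-like cells it measured 31.1 CPM in Jag1+/+ replicate 1, 23.9 in the shared library, 29.6 in Jag1Ndr/+ replicate 1, and 14.3 and 12.3 CPM in the homozygous replicates. The means were 13.3 ± 1.43 (SD, n = 2) and 28.2 ± 3.78 CPM (SD, n = 3), 2.12-fold apart. The ratio of means ranged from 1.40-fold in basophil and mast-like cells to 3.85-fold in megakaryocyte-like cells. In the latter, summed erythroid markers were 442864 CPM in Jag1Ndr/Ndr replicate 1 and 88668 to 278642 CPM in the other 4 libraries, and their part in the Ocel1 values was not tested. Erythroid-like cells, the most numerous, held 4.24, 6.88 and 5.63 CPM against 1.80 and 2.45 CPM. Within B-like cells the groups separated in clusters 6 and 14 and overlapped in cluster 12, at 4.28 and 4.60 CPM against 4.03 to 10.7 CPM. Over all kept cells Ocel1 measured 10.8, 11.9 and 10.7 CPM against 5.87 and 4.61 CPM.

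Of the 7407 genes tested in all 10 classes, 394 lie on chromosome 8. Among the 7407, 2 were apart in the same direction in every class, Ocel1 and Ciapin1, and both lie on chromosome 8. Of the 83 genes apart in the same direction in at least 5 classes, 17 lie on chromosome 8. Ocel1 was chosen from chromosome 8 on this same contrast, so its place here describes the choice and nothing is read from it. The genes beside Ocel1 were not lower with it. In monocyte-like cells Use1, which lies 1566 bases away, measured 76.8 CPM in the homozygous libraries and 61.4 CPM in the others, apart in the other direction. Nr2f6, which overlaps Ocel1 on the other strand, measured 13.4 against 11.8 CPM, with overlapping groups. The use of strand in the counting is not given in the sources used here, so reads in the shared stretch cannot be told apart.

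At P3, Ocel1 in monocyte-like cells measured 62.4 CPM in A, 104 in B, 44.3 in C and 92.5 in D. Library C was lowest and library A next. The log2 ratio of C over D was -1.05 (plain-ratio interval -1.34 to -0.79). It was -0.69 when the barcodes of library A that share the label were put back into C. In B-like cells the 4 libraries stood at 30.5, 56.9, 23.7 and 59.5 CPM, and in macrophage-like cells at 35.1, 75.8, 29.5 and 76.1 CPM. The same order of A and C below B and D held in hepatocyte-like cells (14.0, 26.9, 9.50 and 34.2 CPM). In erythroid-like cells library A was the lowest, at 8.19 CPM, and C stood at 11.4 CPM. In mesenchymal-like cells library C had 0 UMIs and D had 8, too few to count. Of the 5 other genes with an occludin or ELL domain, 3 passed the filter in monocyte-like cells and 0 were apart; Ell2, the most abundant, measured 53.9 against 50.8 CPM.

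Gadd45gip1 was higher in the homozygous embryos in 7 of 10 classes. In B-like cells it measured 64.6, 59.2 and 48.0 CPM in Jag1+/+ replicate 1, the shared library and Jag1Ndr/+ replicate 1, and 100.2 and 85.1 CPM in the homozygous replicates. The means of 92.7 ± 10.6 (SD, n = 2) and 57.3 ± 8.46 CPM (SD, n = 3) were 1.62-fold apart. In hepatocyte-like cells the values were 59.8, 57.6 and 45.5 CPM against 83.2 and 97.2 CPM. Within that class the groups separated in 1 of 3 clusters, cluster 25, at 99.4 and 102.8 CPM against 48.04 to 57.2 CPM. They overlapped in cluster 16 (50.9 and 77.6 against 40.6 to 65.8 CPM) and in cluster 20 (72.5 and 129.9 against 46.9 to 76.6 CPM). Among B-like clusters they overlapped in cluster 12 and separated in the other 2. The ratio of means in the 7 classes ran from 1.30-fold in neutrophil-like to 1.66-fold in hepatocyte-like cells. Erythroid-like, megakaryocyte-like and mesenchymal-like cells overlapped, the first at 22.8 and 48.2 CPM against 27.9 to 45.7 CPM.

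As a ratio of class means, the levels of Gadd45gip1 differed less between classes than those of the other genes here. They ran from 76.4 ± 21.8 CPM in B-like to 37.9 ± 9.43 CPM in neutrophil-like cells (SD, n = 9). Neighbours in that order did not differ beyond their spread. Of 49 other proteins of the large subunit of the mitochondrial ribosome, 48 passed the filter in B-like cells, with 2 higher and 1 lower in the homozygous libraries and a median log2 fold change of 0.00, against -0.01 over all 12272 genes of the class. The fitted value of Gadd45gip1 was 0.68 (SE 0.184). Mrpl19 was 1 of the 2 higher ones, at 33.9 against 29.3 CPM.

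At P3, Gadd45gip1 in B-like cells measured 80.2, 88.9, 110 and 51.5 CPM in libraries A to D. Library C was highest and D lowest, with a log2 ratio of 1.08 (plain-ratio interval 0.92 to 1.27). It was 0.83 with the barcodes of library A put back into C. In hepatocyte-like cells the levels were 74.3, 84.4, 100.3 and 46.4 CPM, and in macrophage-like cells 29.7, 41.9, 55.7 and 24.7 CPM. Library C lay above the other 3 in 10 of the 11 counted classes and D below the other 3 in 9. In B-like clusters, C was highest in clusters 5, 9 and 18 and within the range of the others in clusters 10 and 23.

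Ces1b passed the filter in hepatocyte-like cells only, and over all kept cells it had 100 UMIs in the other embryos and 0 in the homozygous ones. In hepatocyte-like cells it measured 3.43, 4.76 and 4.46 CPM in Jag1+/+ replicate 1, the shared library and Jag1Ndr/+ replicate 1, on 72 UMIs together. The 2 homozygous libraries held 11289384 UMIs of this class and 0 of Ces1b, so the level was at least 15.9-fold lower, counted against a floor of 3 UMIs over both libraries (0.266 CPM). Since the gene passed the filter through the libraries in which it was present, this is a description of how it was chosen. The fitted log2 fold change depends on the prior count and is not given.

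Of the 3 hepatocyte-like clusters of embryos, 2 held the transcript, cluster 25 at 5.38 to 6.22 CPM and cluster 16 at 0.904 to 3.86 CPM in the libraries without the homozygous label. The nearest carboxylesterase, Ces1c, lies 18998 bases away and is a close relative, so the counting could split reads between them. It measured 13.8 CPM in the homozygous libraries and 12.5 CPM in the others, with overlap. Of the 18 other carboxylesterases, 7 passed the filter and 0 were apart. Their median log2 fold change was -0.29, against -0.00 over all 11432 genes of the class. Ces1d and Ces2a, the most abundant of them, measured 44.9 against 58.6 CPM and 35.8 against 45.9 CPM.

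At P3, Ces1b in hepatocyte-like cells measured 33.5 CPM in A, 21.9 in B, 19.0 in C and 109.8 in D. Library C, with 18 UMIs, was therefore lowest but not at 0, and library D stood far above the other 3. The log2 ratio of C over D was -2.47 (plain-ratio interval -3.35 to -1.79), beside a median of -0.17 over all genes counted in the class. Summed erythroid markers in hepatocyte-like cells were 153994 CPM in D and 271831 to 293437 CPM in A to C, and neutrophil markers 946 CPM in D and 3914 to 6969 CPM in A to C. Their part in these values was not tested. In cluster 36, led by Alb and Afp, the gene stood at 43.1 CPM in C and at 48.0 to 168 CPM in the others.

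**Figure D4:**
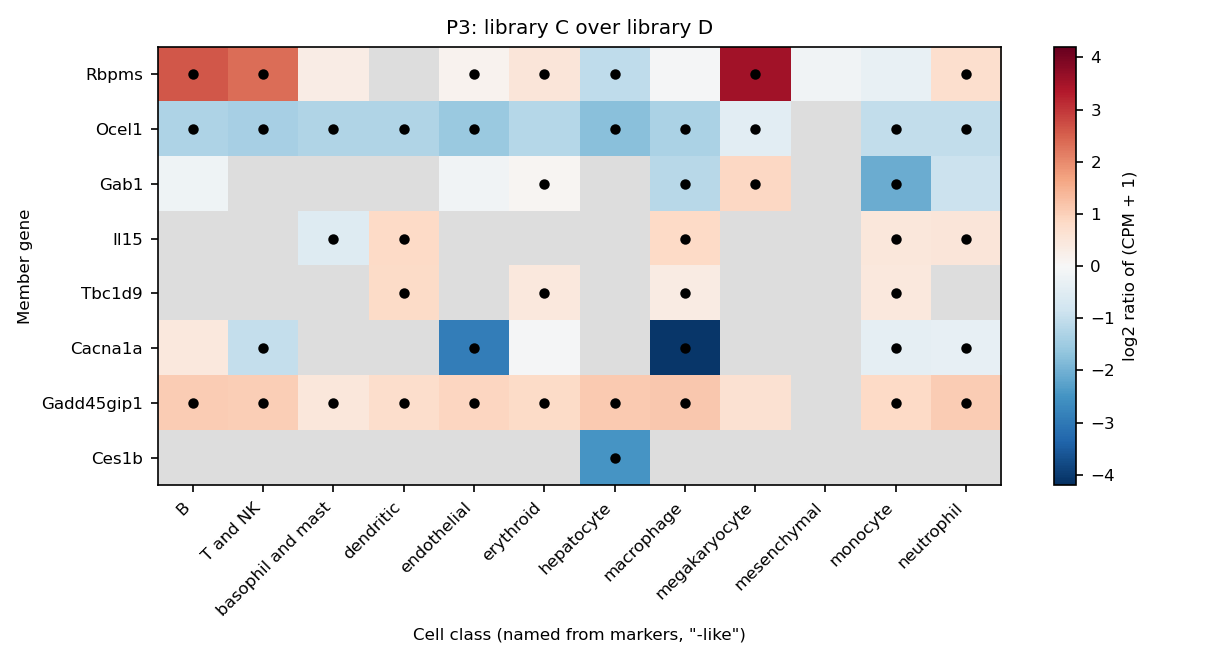
Log2 ratio of library C over library D at P3, on the CPM + 1 scale, for each gene (rows) and cell class (columns); grey fields had under 20 UMIs in C and D together and black dots mark fields in which C lay above or below all of A, B and D. Ocel1 is lower in C in every counted class and Gadd45gip1 higher, while Rbpms is of both signs.

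Over the 8 genes at P3, 57 of 96 pairs of class and member had at least 20 UMIs over libraries C and D. In 18 of them C was at least 1.5-fold higher than D (8.76% of all pairs) and in 18 at least 1.5-fold lower (11.9%). Of the 32 pairs apart in embryos, 30 were counted at P3. In 22 of these C lay at least 1.5-fold from D in the embryonic direction (14.7% of all such pairs) and in 0 in the opposite one (10.9%). In 27, C was beyond A, B and D in the embryonic direction; over all pairs, C was above all 3 in 30.3% and below in 18.9%. The choice of genes went on to P3, so these counts describe the choice. The single value of opposite sign was that of Rbpms in monocyte-like cells, at a log2 ratio of -0.32 (plain-ratio interval -0.90 to 0.23).

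The stages were compared with edgeR's quasi-likelihood test over 57 pairs of class and member, within a fit over 99596 pairs, since stage had no part in choosing the genes. At an adjusted p of 0.05, 11 pairs were higher at P3 (22.1% of all pairs were) and 9 lower (22.2%). The count for the 8 genes is close to these shares. Digestion, software version and gene list differ between the stages and cannot be told apart from age, and the 2 stages were clustered separately. Without the 2 homozygous embryos, all 20 calls remained and 2 were gained, Il15 in macrophage-like and Gadd45gip1 in hepatocyte-like cells. Without TMM scaling 15 remained, 2 were gained (Il15 in macrophage-like and Gab1 in megakaryocyte-like cells), and those of Gab1 in endothelial-like, erythroid-like and macrophage-like cells, Rbpms in erythroid-like cells and Gadd45gip1 in macrophage-like cells did not pass.

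Ocel1 rose from E16.5 to P3 in 9 of 10 classes. In monocyte-like cells it went from 22.2 ± 8.63 CPM (SD, n = 5) to 75.7 ± 27.3 CPM (SD, n = 4). The log2 fold change was 1.63 (SE 0.361), with an adjusted p of 0.00679 in edgeR. Each P3 library lay above each embryo library, although the lowest, library C at 44.3 CPM, was not far above the highest embryo at 31.1 CPM. In hepatocyte-like cells it went from 5.44 ± 1.31 to 21.1 ± 11.4 CPM (log2 fold change 2.099, adjusted p = 9.97e-05 in edgeR). In mesenchymal-like cells, the class that did not pass, library C was at 0 and D at 52.0 CPM.

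Gab1 fell in 6 classes. In B-like cells it went from 11.8 ± 2.83 CPM (SD, n = 5) to 1.93 ± 0.396 CPM (SD, n = 4), with 8.31 to 15.5 CPM in embryos and 1.47 to 2.36 CPM at P3. The log2 fold change was -2.79 (SE 0.210), with an adjusted p of 6.61e-07 in edgeR. In hepatocyte-like cells it went from 12.8 ± 1.42 to 5.25 ± 0.811 CPM (adjusted p = 0.000930 in edgeR). The calls in endothelial-like and macrophage-like cells (adjusted p = 0.0383 and 0.0234 in edgeR) were the least firm. DESeq2 did not call the first, and each was lost when 1 of several libraries was left out. In mesenchymal-like cells, where Gab1 was highest, the log2 fold change was 0.07 (SE 0.336) and did not pass.

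Tbc1d9 rose in macrophage-like cells, from 9.75 ± 3.74 CPM (SD, n = 5) to 36.7 ± 3.77 CPM (SD, n = 4), with no overlap between 3.57 to 13.3 CPM and 32.2 to 40.8 CPM (log2 fold change 1.47, SE 0.231, adjusted p = 0.000253 in edgeR). The class was made up differently at the 2 stages. Its cluster richer in Tbc1d9 held 14.4% to 18.8% of the class in embryos (cluster 22) and 52.1% to 71.5% at P3 (cluster 12 of that stage). In these clusters Tbc1d9 ranged from 7.26 to 27.5 CPM and from 35.8 to 48.9 CPM, a narrower difference than that of the whole class. In the same class 14 of 26 other TBC domain and RabGAP genes rose and 2 fell, Tbc1d24 and Rabgap1l, while 29.0% of all its genes rose and 30.1% fell. The median log2 fold change of that list was 0.53, against 0.00 over all genes of the class.

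Ces1b rose in hepatocyte-like cells, from 2.53 ± 2.36 CPM (SD, n = 5, range 0 to 4.76) to 46.1 ± 43.0 CPM (SD, n = 4, range 19.0 to 110), with an adjusted p of 0.00440 in edgeR. The mean of the 3 embryos in which it was found was 4.22 CPM, below the lowest P3 library. Of 8 other carboxylesterases tested there, 3 rose and 0 fell, Ces1c and Ces2a among them, while 20.4% of all genes of the class rose and 19.3% fell. The list had a median log2 fold change of 0.87 against -0.02 over all genes. Rbpms fell in neutrophil-like cells, from 5.18 ± 1.17 (SD, n = 5) to 1.44 ± 0.802 CPM (SD, n = 4; adjusted p = 0.00167 in edgeR), and in erythroid-like cells, from 1.70 ± 0.599 to 0.876 ± 0.272 CPM.

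Gadd45gip1 fell in macrophage-like cells, from 52.6 ± 11.2 (SD, n = 5) to 38.0 ± 13.9 CPM (SD, n = 4), on ranges that overlapped (log2 fold change -0.97, adjusted p = 0.00436 in edgeR). In B-like cells it measured 71.4 ± 21.0 and 82.6 ± 24.3 CPM. Cacna1a and Il15 passed the test in 0 of 6 and 0 of 8 classes, with an unadjusted p under 0.05 in 0 and 1. Il15 in macrophage-like cells was called without TMM scaling, without Jag1Ndr/Ndr replicate 1, without both homozygous embryos and without library D. Cacna1a in endothelial-like cells measured 1.01 to 16.4 CPM in embryos and 5.62 to 48.7 CPM at P3, a spread wider than the difference of its means.

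For each gene, the 2 genes with the most similar log2(CPM + 1) over the 90 pairs of library and class were found among 11905. Tbc1d9 was most like the C-type lectins Clec4a1 (Pearson r = 0.92) and Clec4a3 (0.91), and Ces1b most like the liver enzymes Cyp2c37 (0.94) and Tat (0.94). Il15 followed the Fc receptor gene Fcgr3 (0.89) and the cytokine receptor gene Csf2rb (0.89), and Rbpms followed Mfge8 (0.90) and Auts2 (0.86). Gab1 was most like Ptk2 (0.76) and Tbc1d12 (0.74), Gadd45gip1 most like Shmt2 (0.71) and Paics (0.70), and Cacna1a most like Ssh2 (0.66) and Ripor1 (0.65). Ocel1 was most like Fam32a (0.83) and Rex1bd (0.81). Of these 16 genes, Fam32a, Rex1bd, Ripor1 and Tat lie on chromosome 8. These points share libraries and depth, so r is a description.

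The members were set beside the rest of their chromosome. Of all pairs of class and gene on chromosome 8, 13.3% were apart in embryos, against 7.98% to 11.4% on the other chromosomes. The share apart and past 2-fold was 1.19%, close to the 1.16% of chromosome 9 and the 1.14% of chromosome 4. Of the pairs apart and counted at P3, 26.3% were at least 1.5-fold from D in the same direction on chromosome 8, against 9.83% to 19.5% elsewhere. These chromosome 8 shares include the 8 genes, which make up 30 of the 510 pairs behind the last share. They also make up 22 of those in the same direction. In embryos the 8 genes make up 32 of the 769 pairs apart on chromosome 8. The genes were chosen as chromosome 8 genes on these same contrasts, so nothing is read from the place of the chromosome. In 5 Mb bins of chromosome 8, the share of pairs apart was 24.3% around Rbpms, 21.0% around Ocel1, 18.3% in the bin of Gab1, Il15, Tbc1d9, Cacna1a and Gadd45gip1, and 12.7% around Ces1b, the last below the share of the whole chromosome. Bins without a member reached similar shares, with 19.7% from 35 to 40 Mb, 19.4% from 50 to 55 Mb and 18.5% from 55 to 60 Mb. The shares of the members' bins include the members. Genes within 500 kb of a member were counted in the class where that member was highest, which for Rbpms, Gab1 and Il15 is a class where the member itself overlapped. The counts leave out the member itself but hold any other member in reach, such as Gadd45gip1 near Cacna1a. Around Cacna1a, 7 of 38 were higher and 2 lower, around Ocel1 6 of 22 higher and 2 lower, and around Rbpms 3 of 10 higher and 1 lower. Around Gadd45gip1 3 of 33 were higher and 3 lower, around Tbc1d9 1 of 11 and around Il15 1 of 2 was lower, and around Gab1 (3 genes) and Ces1b (6 genes) 0 were apart. The share of all genes apart, both directions together, was 9.91% in endothelial-like (Cacna1a, Rbpms), 10.8% in monocyte-like (Ocel1) and 6.91% in B-like cells (Gadd45gip1). It was 6.83% in macrophage-like (Tbc1d9), 11.9% in basophil and mast-like (Il15), 15.6% in mesenchymal-like (Gab1) and 11.8% in hepatocyte-like cells (Ces1b). In these classes 0 of the genes counted near a member were beyond 2-fold. Genes of 1 chromosome are not independent of each other, and no test was made.

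**Figure D5:**
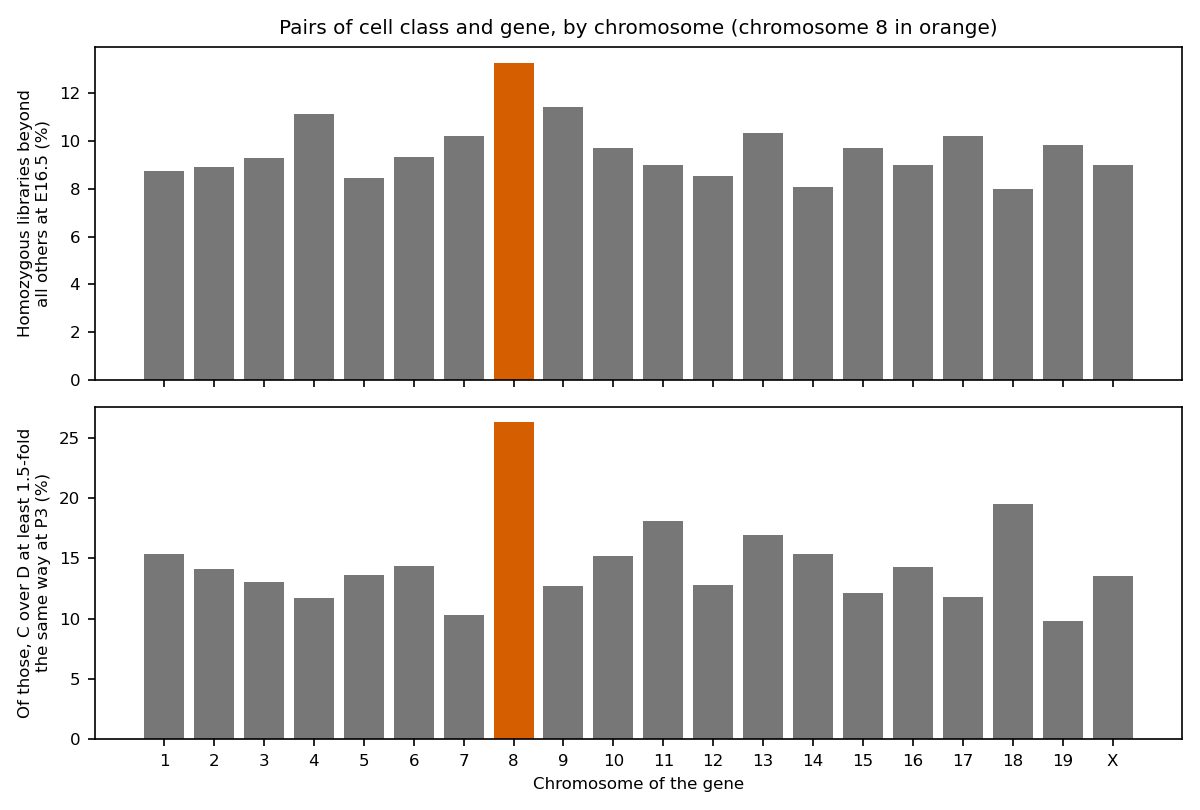
Share of pairs of cell class and gene (vertical axes, percent) by chromosome (horizontal axis), above for pairs in which both homozygous E16.5 libraries lay beyond all others, below for those of them in which library C at P3 was at least 1.5-fold from D in the same direction. Chromosome 8, in orange, stands at 13.3% and 26.3% with the 8 genes included, and these genes were chosen from it on the same contrasts.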

How the data were processed

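The authors deposited raw UMI counts per gene and cell barcode, without normalisation; per the submitters' processing notes, the build was mm10 and Cell Ranger 2.1.1 was used, while per the file headers the writing software was version 3.0.2 at P3 and 3.1.0 at E16.5. Strand options are not given in the sources used here. Barcodes under 1000 UMIs or over 15% mitochondrial UMIs were dropped, and doublets were removed per library with Scrublet in scanpy 1.11.5. Cells of each stage were clustered without the 8 genes (2000 variable genes, 30 components, 15 neighbours, Leiden resolution 1), and clusters were named from marker lists. Raw counts were summed per library and class with at least 20 cells. The sums were fitted with edgeR 4.0.16 (quasi-likelihood test, TMM, low-count filter, Benjamini-Hochberg over all pairs of class and gene, threshold 0.05), with DESeq2 1.42.0 as an alternative. Intervals of levels are exact 95% Poisson. Those beside ratios of C over D are exact 95% binomial intervals of the plain ratio, while the ratios have 1 CPM added to each side. Like floors of 3 UMIs, all cover counting error only. The scripts were tested on simulated data. The 8 genes and the gene lists were chosen with earlier results of these data known. Genes named beside the 8 are the 2 most similar, the nearest and overlapping neighbours, and list members that passed the stage test or were most abundant; others were chosen after their values were seen.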

Additional observations from a re-analysis of the deposited data

Results flagged for a closer look

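Of 16 groups of gene, class and stage examined for a sample far from the others, 1 stood out, and chance alone marks about 1 in 20 such groups. Ces1b in hepatocyte-like cells of P3 library D measured 109.8 CPM, against 19.0 to 33.5 CPM in libraries A to C.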

How the results depend on the processing

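The number of pairs called between homozygous and other embryos, 1 as reported, moved in most alternatives. It was 14 with DESeq2, 2 with scaling by library size only, 229 without a filter on low counts, 3 with Xist status as a covariate, and 6 to 129 when 1 library was left out, highest without Jag1Ndr/Ndr replicate 2. The cause was not tested. With the replicate number as a block, which the labels give as a number only, it was 24, of which 20 were higher. The number called between stages, 44044, ranged from 35026 to 46551 over its alternatives, with 43163 under the replicate block. Of 192 alternative values of the 8 genes in embryos 177 moved by less than the spread and 15 by more. Of 40 at P3, 2 moved by more. None of these, nor the 128 alternative stage tests, reversed. Depth limits genes with few UMIs, such as Cacna1a in endothelial-like cells, with 8 UMIs in the homozygous embryos.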
